A study of Canis lupus familiaris with 15 samples.

Results

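Gene expression under hepatocyte growth factor (HGF) given together with the compound labelled UO was compared with that of untreated Madin-Darby canine kidney (MDCK) cells. MDCK is an established cell line from dog kidney whose cells grow as a polarised epithelial sheet on porous filters. The comparison takes every array titled HGF + UO (n = 3) and every array titled Control (n = 4), 7 of the 15 arrays of the series. Cultures of all groups spent 7 days on Transwell filters in MEM with 5% FBS. Control cells received medium only. HGF + UO cells received HGF at 100 ng/ml for 24 h with a compound spelled UO126 at 10 uM. Arrays with HGF alone (100 ng/ml, 24 h, n = 4) give the HGF change of each gene, and arrays of HGF + PD (n = 4), with 50 uM of the compound spelled PD09859 in the labels, stand beside them. These spellings were taken to mean U0126 and PD98059, inhibitors of MEK. The 2 doses differ, so PD values are given next to UO values without a comparison. Compound without HGF was not analysed here, and whether a vehicle was given is not stated in the labels used, so that an effect of the compound on its own and what the compound leaves of HGF cannot be told apart in these groups. One cell line was used, and the arrays of a group are labelled biological replicates with no word on how the cultures were separated, so p-values reflect only how much these arrays varied, which may be technical.

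HGF binds the receptor tyrosine kinase MET, which signals through several branches, among them the kinase cascade of RAF, MEK and ERK, PI3 kinase with AKT, and STAT3. MEK inhibitors stop ERK from being phosphorylated and leave the other branches without a direct block. In MDCK cells HGF is known for scattering colonies, opening cell junctions and driving tubule formation and growth. The comparison shows where cells that received HGF and the inhibitor stood relative to cells that received neither.

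The arrays gave 1 value per probe set, and the 24904 probe sets that reached 4 on the log2 scale on 3 or more arrays were tested. Median intensity was 41.4 on the HGF + UO arrays and 41.3 on the Control arrays, and the share of probe sets at or above the filter level was 57.2% in both. On the first principal component (71.2% of the variance) the HGF + UO arrays lay between -36.9 and -32 and the Control arrays between -34.5 and -33.7, while the HGF arrays lay between 87.8 and 94.3. On the second (15.2%) they separated, at 11.2 to 15 for HGF + UO and -41.8 to -35.5 for Control. HGF + UO replicate 2 stood apart from the other 2 on the third component (3.05%), at -30.2 against -10.4 and -10.1. The 3'/5' signal ratio of the control probe sets, a sign of RNA quality, was 2.54 against 2.43 for actin and 1.25 against 1.13 for GAPDH (log2, HGF + UO against Control). HGF + UO and Control overlapped for neither ratio (exact permutation p = 0.0286 for each, the smallest that 3 against 4 arrays allow, and 0.0571 after Benjamini-Hochberg adjustment over 8 array measures). On the HGF arrays the ratio was 1.82 for actin (1.79 to 1.85) and 1.06 for GAPDH (1.01 to 1.1). The part of these ratios in the gene results was not tested.

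With HGF and UO, 5550 of the 24904 probe sets (22.3%) passed an adjusted p of 0.05 against Control in limma's moderated test with Benjamini-Hochberg adjustment, 2976 higher (11.9%) and 2574 lower (10.3%). Of these, 574 (2.3%) had a log2 change of 1 or more in size, 367 upward (1.47%) and 207 downward (0.831%). For HGF alone the same counts were 13839 (55.6%) and 3467 (13.9%). The median size of change over all probe sets was 0.13 for HGF + UO and 0.28 for HGF. Without HGF + UO replicate 2, 2678 probe sets were higher and 1843 lower. Taking 1 probe set for each of 10287 genes, 2477 genes (24.1%) passed, 1420 higher (13.8%) and 1057 lower (10.3%). The median change over all genes was -0.0055. All comparisons with Control use the same 4 Control arrays, so the HGF and HGF + UO changes of a gene are not independent and are given side by side. HGF + UO was compared with HGF directly in the same fit, where 52.4% of probe sets passed. On 31.7% of probe sets the HGF + UO and Control arrays did not overlap. Gene lists are described by how many measured members passed and by their median. Each count is to be read beside the shares of all genes, 24.1% called, 13.8% higher and 10.3% lower. A list count of 0 was also 0 at an unadjusted p of 0.05 in the same limma fit, except for 4 ciliary genes, 1 interferon gene and 1 S100 or annexin gene that were higher. Beyond the genes taken by the naming rule, members given as examples were chosen after their values were seen.

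**Figure D1:**
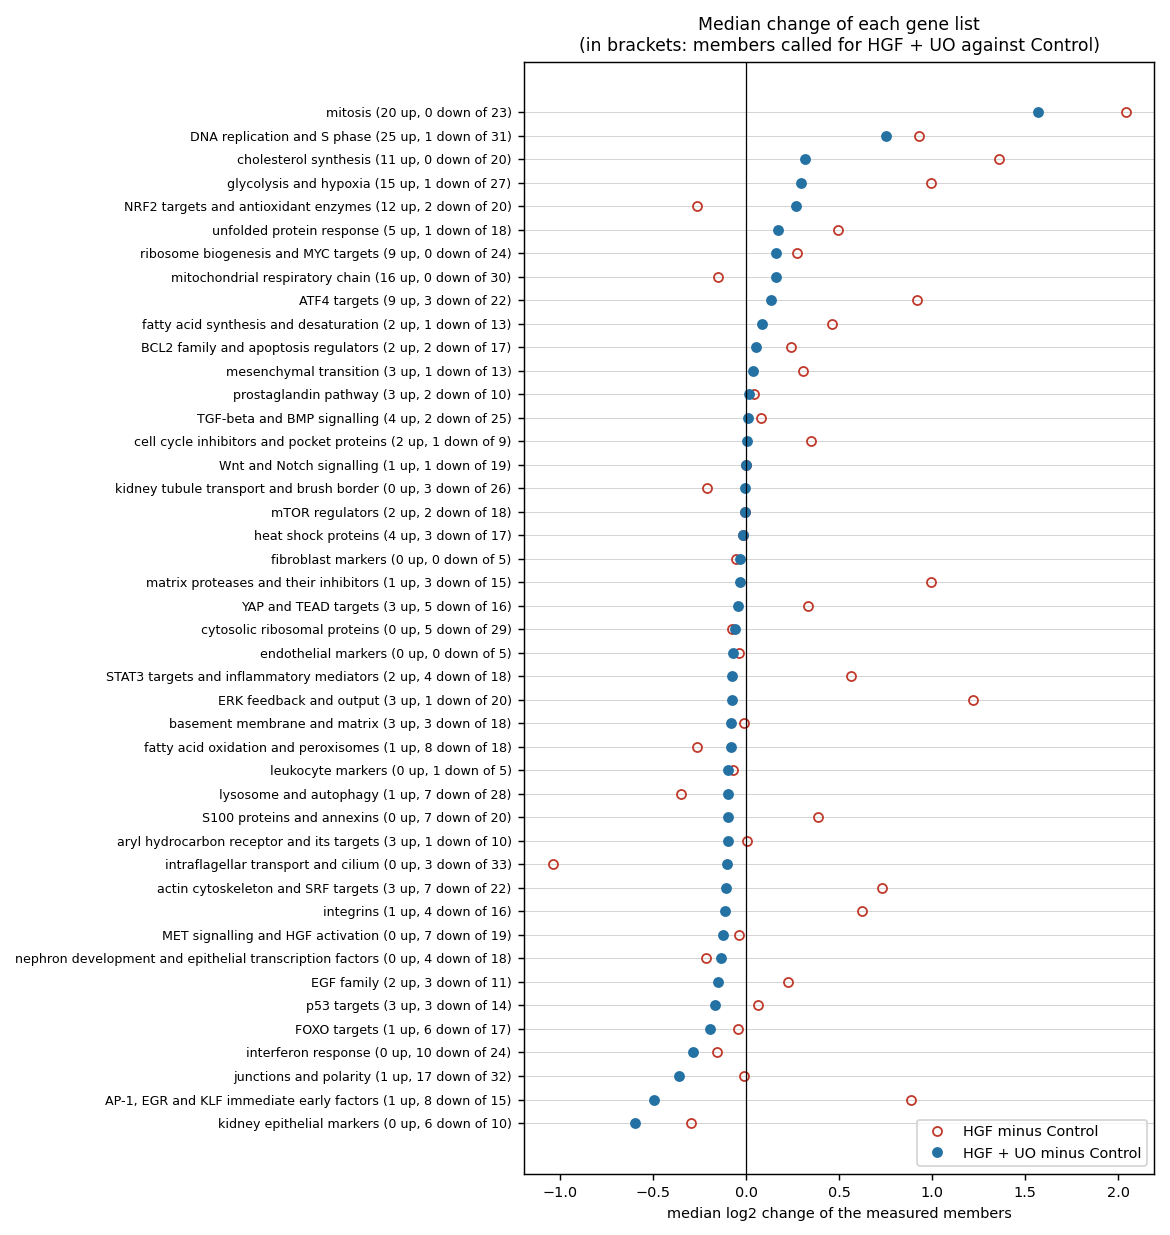
Median log2 change of the measured members of 44 gene lists, for HGF + UO minus Control (filled) and HGF minus Control (open), with the number of members higher and lower for HGF + UO in brackets. The mitosis list sits highest at 1.57 and the kidney epithelial markers lowest at -0.60, while most lists lie near the median of all genes.

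Cell cycle genes stood above Control with HGF and UO. In the mitosis list, 20 of 23 measured members were higher and 0 lower (13.8% and 10.3% of all genes tested), with a median change of 1.57 beside 2.04 for HGF alone, and 18 rose by at least 1. In the list of DNA replication and S phase, 25 of 31 rose and 1 fell, with a median of 0.75 beside 0.93 for HGF. Those that did not pass included TPX2 (0.37), KIF2C (0.24) and UBE2C (0.02) among the mitosis genes.

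CDK1, the kinase that starts mitosis, read 10.66, 10.66, 10.57 and 10.72 on the Control arrays and 12.04, 12.39 and 12.25 on the HGF + UO arrays (log2 intensity). All 3 HGF + UO arrays lay within or next to the range of the HGF arrays (12.17 to 12.34) and far from Control. The rise was 1.57 ± 0.08 (SE of the fit), 2.98-fold (limma adjusted p = 2.02e-08), and HGF + UO against HGF did not pass (adjusted p = 0.745, limma). BUB1B, a spindle checkpoint kinase, showed the same order, with a rise of 1.95 ± 0.11 beside 2.08 for HGF. BIRC5, the survivin subunit of the chromosomal passenger complex, rose by 1.77 ± 0.13 beside 1.75. MELK, a kinase of dividing cells, rose by 2.68 ± 0.18 beside 2.94, and the centrosome kinase NEK2 by 2.62 ± 0.20 beside 2.15.

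Other mitosis genes stood above Control but below HGF. CEP55, which acts at the last step of cytokinesis, read 4.82, 3.52, 4.39 and 4.29 on the Control arrays, 7.03, 7.14 and 7.16 with HGF and UO, and 8.18 to 8.91 with HGF. Its 3 groups did not overlap, and the rise over Control was 2.85 ± 0.24 (7.22-fold, limma adjusted p = 1.16e-06). Its Control arrays lay close to the filter level, where the size of a change depends on the background estimate of GCRMA. KIF23, a motor protein of the spindle midzone, rose by 1.97 ± 0.10 beside 2.90 for HGF, and the difference from HGF passed too (-0.93, limma adjusted p = 1.52e-06). Cyclin A (CCNA2) rose by 2.18 ± 0.13 beside 2.65, the spindle checkpoint kinase TTK by 2.36 ± 0.28 beside 3.43 and the condensin subunit NCAPG2 by 2.48 ± 0.15 beside 3.40.

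PCNA, the sliding clamp of DNA polymerase, read 10.01, 9.96, 9.88 and 9.92 on the Control arrays, 11.12, 11.18 and 11.23 with HGF and UO, and 10.73 to 11.09 with HGF. Here the HGF + UO arrays lay above both other groups, by 1.24 ± 0.07 over Control (limma adjusted p = 6.78e-08) and by 0.31 over HGF (adjusted p = 0.00271). Thymidylate synthase (TYMS) had the same order, at 1.11 ± 0.06 beside 0.85 for HGF. ORC1, the largest subunit of the origin recognition complex, rose by 2.78 ± 0.24 beside 4.05 and the clamp loader subunit RFC3 by 1.30 ± 0.09 beside 2.05. The ribonucleotide reductase subunit RRM2 was the S phase gene that fell, by 0.28 ± 0.07 beside -0.55 for HGF.

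Genes that restrain the cycle were mixed. Of 9 cyclin-dependent kinase inhibitors and pocket proteins, 2 were higher and 1 lower (33.3% called, beside 24.1% of all genes). CDKN2C, an inhibitor of CDK4 and CDK6, rose by 0.77 ± 0.14 beside -0.13 for HGF, with 0.47 (adjusted p = 0.0949, limma) on its other probe set. CDKN2D of the same family rose by 0.67 ± 0.15, with 0.29 (limma adjusted p = 0.0629) on its other probe set. The atypical cyclin CCNG2 fell by 0.43 ± 0.07. CDKN1A, the inhibitor p21, read 7.12, 6.77, 6.91 and 7.35 on Control, 7.68, 7.44 and 7.26 with HGF and UO, and 12.61 to 12.99 with HGF. Control and HGF + UO overlapped and their difference of 0.42 ± 0.17 did not pass (limma adjusted p = 0.106, 95% interval 0.05 to 0.80), with -0.12 and -0.04 on other probe sets.

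**Figure D2:**
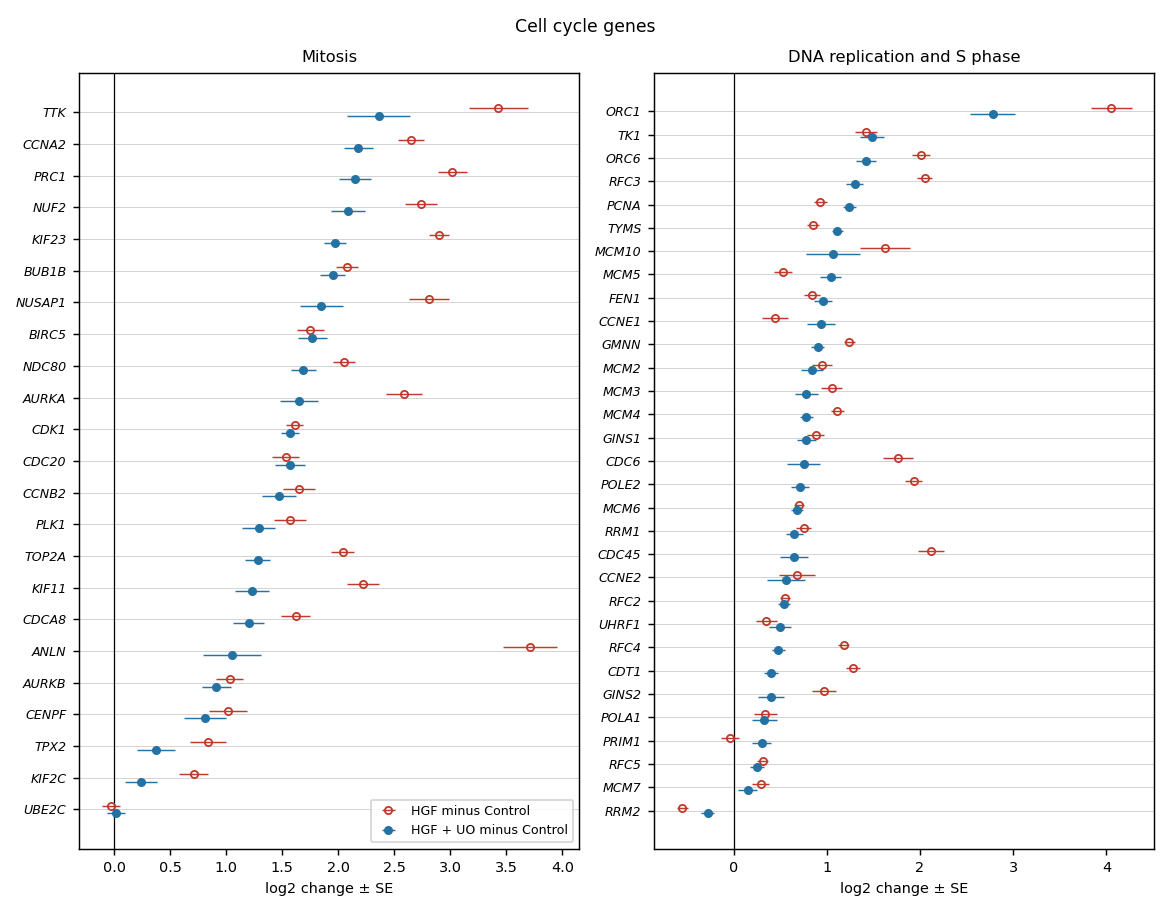
Log2 change ± SE of each measured mitosis gene (left) and gene of DNA replication and S phase (right), for HGF + UO minus Control (filled) and HGF minus Control (open). Most filled points lie right of 0, from TTK at 2.36 and ORC1 at 2.78 down to UBE2C at 0.02 and RRM2 at -0.28.

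The sterol, glycolysis and ATF4 lists had more higher than lower calls against Control, at smaller medians than for HGF, and part of their members did not pass. In the cholesterol synthesis list 11 of 20 rose and 0 fell, with a median of 0.32 beside 1.36 for HGF. The thiolase ACAT2 (0.10, limma adjusted p = 0.309) and MVD, mevalonate diphosphate decarboxylase (-0.02), were among those that did not pass, beside 1.05 and 0.71 for HGF. Of 27 genes of glycolysis and hypoxia, 15 were higher and 1 lower (0.30 beside 0.99), and of 22 targets of the stress factor ATF4, 9 were higher and 3 lower (0.13 beside 0.92). Farnesyl diphosphate synthase (FDPS) read 9.71, 9.55, 9.56 and 9.40 on the Control arrays, 10.72, 10.75 and 10.84 with HGF and UO, and 12.12 to 12.21 with HGF. The HGF + UO arrays thus lay between the other groups, 1.21 ± 0.07 above Control (limma adjusted p = 4.76e-08). INSIG1, the sterol feedback regulator, rose by 0.73 ± 0.08 beside 2.88, with 0.17 (limma adjusted p = 0.0695) on a second probe set, and the methylsterol oxidase MSMO1 by 0.47 ± 0.05 beside 1.36.

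Hexokinase 2 (HK2) rose by 1.09 ± 0.09 beside 2.70 for HGF, while its other probe set read -0.09 (limma adjusted p = 0.51). Lactate dehydrogenase A (LDHA) rose by 0.36 ± 0.05 beside 0.99, and the collagen prolyl hydroxylase subunit P4HA2 by 0.76 ± 0.10 beside 1.07, with 0.51 to 0.80 on 4 other probe sets and -0.03 on a dim one. NDRG1, induced by hypoxia in many cells, was the member that fell, by 0.81 ± 0.12 beside a rise of 1.90 with HGF. MTHFD2, a mitochondrial folate enzyme, read 7.60, 7.28, 7.31 and 7.41 on Control, 8.46, 8.49 and 8.39 with HGF and UO, and 11.34 to 11.50 with HGF. Its rise of 1.05 ± 0.08 over Control passed (limma adjusted p = 7.93e-07). The serine synthesis enzyme PSAT1 rose by 0.98 ± 0.07 beside 1.03, and its difference from HGF did not pass (limma adjusted p = 0.60). VLDLR, a lipoprotein receptor, rose by 0.96 ± 0.10 beside -0.43 for HGF, with 0.94 and 0.44 (limma adjusted p = 0.113 for the latter) on other probe sets. The stress sensor SESN2 was among those that fell (-0.74 ± 0.20, limma adjusted p = 0.014). That call was lost in a fit of the 7 arrays alone (adjusted p = 0.0584) and without HGF + UO replicate 2 (adjusted p = 0.0799).

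Several signalling genes that HGF raised strongly had means above Control and below HGF on the HGF + UO arrays. PTGS2, the inducible cyclooxygenase, read 6.18, 6.17, 5.76 and 6.16 on the Control arrays, 8.14, 8.31 and 7.31 with HGF and UO, and 12.17 to 12.68 with HGF. The groups did not overlap, and the rise over Control was 1.85 ± 0.23 (3.62-fold, limma adjusted p = 3.97e-05) beside 6.33 for HGF. SERPINE2, a serine protease inhibitor, rose by 1.53 ± 0.11 beside 5.74, with 2.57 and 0.14 (limma adjusted p = 0.543 for the latter) on other probe sets. TGFB2, a TGF-beta ligand, read 2.86 to 3.16 on Control, 5.83, 5.98 and 5.49 with HGF and UO, and 6.95 to 7.66 with HGF. Since Control lay below the filter level, the size of this rise (2.78 ± 0.31) depends on the GCRMA background, as does that of FGFBP1, a carrier of fibroblast growth factors (2.90 ± 0.31 beside 6.29). KLF4, a transcription factor of barrier epithelia, rose by 1.67 ± 0.18 beside 3.60. SNAI2, a repressor of epithelial genes, rose by 0.83 ± 0.19 beside 5.82 (limma adjusted p = 0.00574). One Control array of SNAI2 (8.64) equalled the lowest HGF + UO array, and the call was lost when only the 7 arrays were fitted (limma adjusted p = 0.051).

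NQO1 and other detoxification genes formed a group that stood above Control, in part above HGF as well. NQO1, a quinone reductase and target of the transcription factors NRF2 and AHR, read 10.94, 10.63, 10.92 and 10.44 on the Control arrays, 13.03 to 13.22 with HGF, and 13.80, 13.60 and 13.70 with HGF and UO. No array of HGF + UO overlapped with either group. The rise over Control was 2.97 ± 0.11 (7.84-fold, limma adjusted p = 1.06e-09), and the difference from HGF was 0.53 (adjusted p = 0.00108). Of 20 NRF2 targets and antioxidant enzymes, 12 were higher and 2 lower, with a median of 0.27 beside -0.27 for HGF. With any 1 Control or HGF + UO array left out, the higher count was 9 or 10. PIR, an iron-binding nuclear protein, rose by 2.10 ± 0.08 beside 1.57.

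Other members of the list rose over Control although HGF alone lowered them. The glutathione transferase MGST1 read 6.64, 5.69, 5.68 and 6.11 on Control and 8.15, 8.36 and 8.10 with HGF and UO, a rise of 2.17 ± 0.25 beside -2.61 for HGF. GSTA4, another glutathione transferase, rose by 0.41 ± 0.05 beside -1.28, GCLM, a subunit of the first enzyme of glutathione synthesis, by 0.41 ± 0.05 beside -0.56, and the ferritin heavy chain FTH1 by 0.34 ± 0.11 beside -1.02. HMOX1, heme oxygenase, did not pass (-0.01). The export pump ABCC2 fell by 1.55 ± 0.16 beside -2.56.

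CYP1B1 and TIPARP were among the rises that HGF alone did not give to this extent. Both are classical targets of the aryl hydrocarbon receptor AHR, a ligand-activated transcription factor. CYP1B1, a cytochrome P450, read 12.81, 12.63, 12.72 and 12.29 on the Control arrays, 12.08 to 12.27 with HGF, and 14.87, 14.74 and 14.73 with HGF and UO. HGF + UO lay above both other groups on every array, by 2.17 ± 0.11 over Control (4.49-fold, limma adjusted p = 1.62e-08), and by 3.01 on a second probe set. TIPARP, an ADP-ribosyltransferase that restrains AHR, read 10.64, 10.60, 10.54 and 10.65 on Control and 12.79, 12.61 and 12.86 with HGF and UO, with 11.22 to 11.37 under HGF. Its rise of 2.15 ± 0.06 had the lowest adjusted p of the genes set out here (6.31e-11, limma). Of 10 measured genes of AHR and its targets, these 2 and NQO1 were higher and 1, AHR itself, was lower (-0.56 ± 0.07). In all 40% were called, beside 24.1% of all genes. The median of the 10 was -0.10, beside 0.0022 for HGF and -0.0055 for all genes. NQO1 rose by 2.44 with HGF alone. ALDH3A1 (-0.19) and UGT1A6 (-0.02), further known targets, did not pass. On the HGF + PD arrays CYP1B1 and TIPARP stood 1.83 and 2.03 above Control.

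With each gene read on its brightest probe set, FILIP1L had the widest rise of the 10287 genes, while the widest rise of any probe set was 5.92. It encodes a protein related to a filamin A partner. Its values were 5.31, 3.97, 4.95 and 4.40 on the Control arrays, 3.98 to 5.10 with HGF, and 9.35, 9.45 and 8.93 with HGF and UO. Control and HGF overlapped and HGF + UO lay far above both, with a rise of 4.59 ± 0.32 (24.0-fold, limma adjusted p = 2.44e-07). Other FILIP1L probe sets rose by 0.97, 1.17 and 2.00, and the low levels near the filter make the sizes depend on the background estimate. FABP1, the liver fatty acid binding protein of proximal tubules, read 4.53, 4.38, 4.14 and 4.25 on Control and 7.27, 8.15 and 8.78 with HGF and UO (3.75 ± 0.45). The 3 HGF + UO arrays of FABP1 spread by more than 1 but did not reach the Control arrays. CLDN10, a claudin of paracellular ion transport, rose by 3.08 ± 0.23 from below the filter on 1 probe set, while 2 others read -0.01 and -0.02.

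Brighter genes with HGF + UO above Control differed in where HGF alone stood. LIPA, lysosomal acid lipase, read 8.05, 7.74, 8.12 and 7.68 on the Control arrays, 5.81 to 6.50 with HGF, and 10.39, 10.22 and 10.41 with HGF and UO. TGFBI, a secreted matrix protein induced by TGF-beta, read 9.77, 9.20, 9.38 and 9.05 on Control, 7.70 to 8.11 with HGF, and 12.18, 12 and 12.18 with HGF and UO. For both genes HGF alone lay below Control and HGF + UO above it, with rises of 2.44 ± 0.15 and 2.77 ± 0.16 over Control (limma adjusted p = 8.89e-08 and 4.32e-08). The acyl-CoA thioesterase ACOT12 rose by 2.34 ± 0.14 beside -1.08, with 0.43 (limma adjusted p = 0.227) on another probe set near the filter. NRG1, the ligand neuregulin of ERBB3 and ERBB4, read 7.56, 7.23, 6.72 and 6.91 on Control, 7.80 to 8.03 with HGF, and 9.14, 9.08 and 8.63 with HGF and UO, a rise of 1.85 ± 0.20 and of 1.55 on a second probe set. For NRG1 the HGF arrays lay above Control and below HGF + UO. On the HGF + PD arrays the changes against Control were 3.25 for FILIP1L, 3.45 for FABP1, 2.21 for LIPA, 2.91 for TGFBI and 2.31 for NRG1.

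Genes of the mitochondrial respiratory chain rose by small amounts. Of 30 measured, 16 were higher and 0 lower, with a median of 0.16 beside -0.15 for HGF and none higher by 1. The count of 16 was 10 without Control replicate 3 and 10 without HGF + UO replicate 2. The complex I subunit NDUFB5 read 12.24, 12.23, 12.17 and 12.29 on Control and 12.78, 12.81 and 12.79 with HGF and UO, a rise of 0.56 ± 0.07 beside -1.13 for HGF. CYC1, cytochrome c1, rose by 0.48 ± 0.07 and the complex I subunit NDUFB3 by 0.33 ± 0.05. Of 24 genes of ribosome biogenesis and MYC targets, 9 were higher and 0 lower (13.8% of all genes were higher). Their median was 0.16 beside 0.27 for HGF, and the count of 9 fell to as few as 6 with 1 array left out. Spermidine synthase SRM stood at 0.94 ± 0.15 and ornithine decarboxylase ODC1 at 0.47 ± 0.07. The ribosome assembly factor NIP7 rose by 0.27 ± 0.05, with 0.22 on each of 2 other probe sets (limma adjusted p = 0.0473 and 0.0684).

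**Figure D3:**
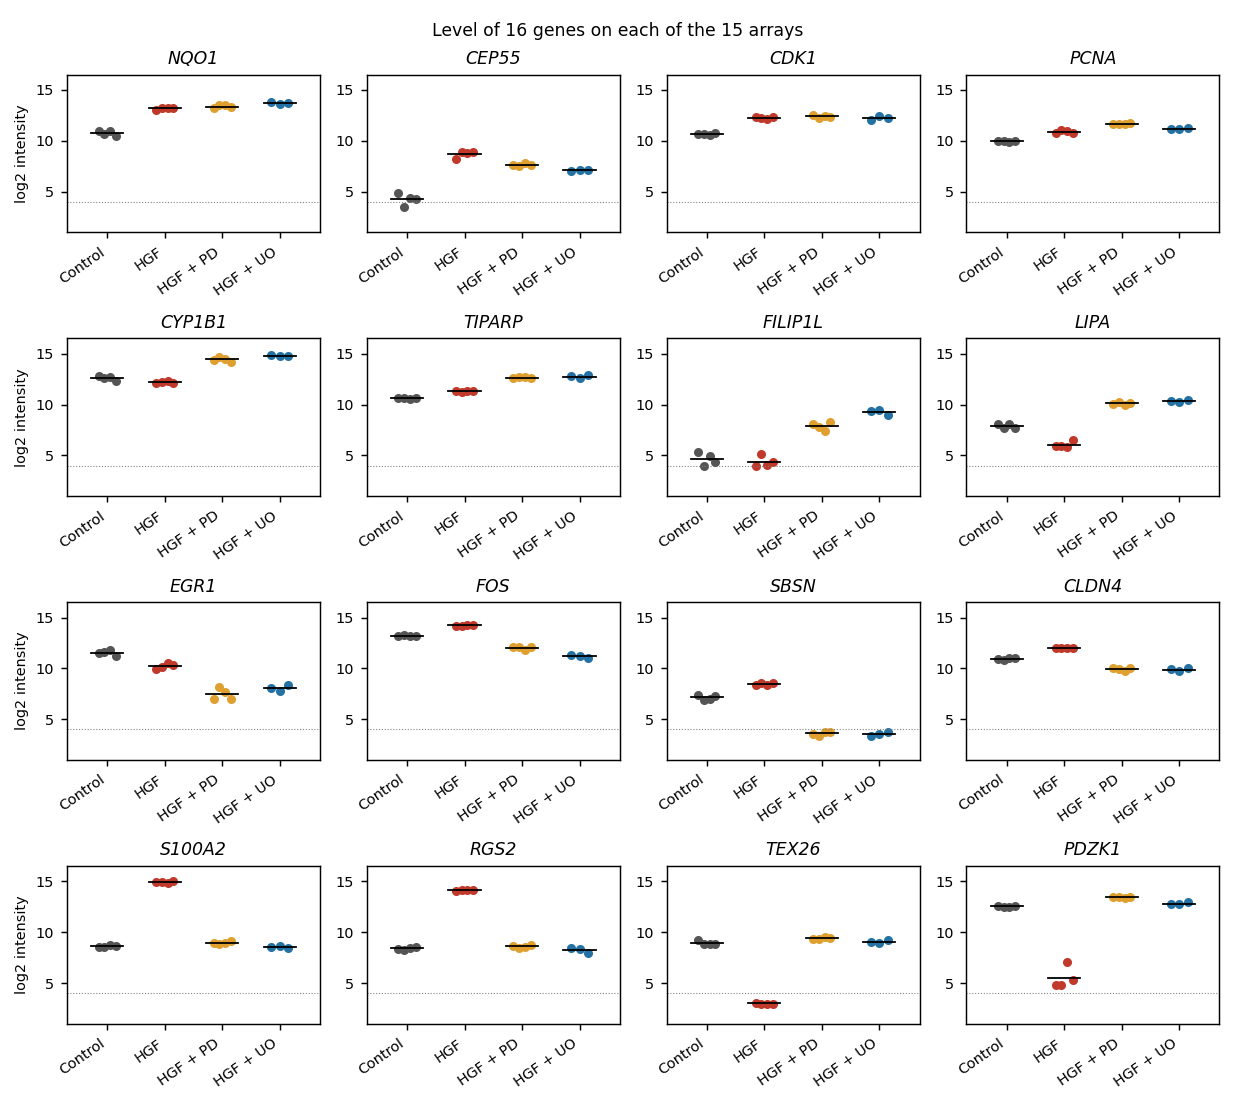
Log2 intensity of 16 genes on each of the 15 arrays by group, with the group mean as a bar and the filter level of 4 as a dotted line. EGR1, FOS, SBSN and CLDN4 lie lower with HGF + UO than in Control, S100A2, RGS2, TEX26 and PDZK1 lie close to Control (PDZK1 0.28 above it without overlap), and the other 8 lie above Control.

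Transcription factors of the immediate early response were lower with HGF and UO than in untreated cells. Of 15 measured AP-1, EGR and KLF genes, 8 were lower and 1 higher, with a median of -0.50 beside 0.88 for HGF. EGR1, a zinc finger factor switched on by ERK through SRF and its partners, read 11.50, 11.66, 11.83 and 11.18 on the Control arrays, 9.93 to 10.55 with HGF, and 8.09, 7.78 and 8.41 with HGF and UO. The 3 groups did not overlap and EGR1 was lower in HGF + UO by 3.45 ± 0.26 (10.9-fold, limma adjusted p = 5.21e-07), with -3.50 on a second probe set. FOS, an AP-1 subunit, read 13.15, 13.30, 13.22 and 13.22 on Control, 14.19 to 14.27 with HGF, and 11.35, 11.26 and 11.07 with HGF and UO. HGF thus lay above Control and HGF + UO below it, by 2.00 ± 0.07 (3.99-fold, limma adjusted p = 8.45e-10).

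IER2, a nuclear early response protein, fell by 1.31 ± 0.08 and BTG2, an antiproliferative early gene, by 0.77 ± 0.13. JUNB, ATF3 and KLF6, factors of the same class, fell by 0.73 ± 0.12, 0.72 ± 0.16 and 0.51 ± 0.11, each of them raised by HGF alone (1.05, 0.69 and 2.67). JUN (-0.29) and FOSL2 (-0.13) did not pass. Counts for this list were 1 higher and 8 lower with any single Control or HGF + UO array left out.

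Direct readouts of the ERK pathway passed against Control at about the share of all genes. Of 20 genes of ERK feedback and output, 3 were higher and 1 lower (20%, beside 24.1% of all genes), with a median of -0.077 beside 1.22 for HGF. DUSP6, a phosphatase that turns ERK off, read 12.04, 12.22, 12.04 and 12.21 on Control and 12.45, 12.49 and 12.49 with HGF and UO. The groups did not overlap, and DUSP6 rose by 0.35 ± 0.06 (1.27-fold, limma adjusted p = 0.000882) beside 1.09 for HGF and 1.07 for HGF + PD, with 0.33 on a second probe set. DUSP5, a nuclear ERK phosphatase, read 9.31, 9.08, 9.20 and 8.92 on Control, 11.64 to 12.07 with HGF, and 8.01, 7.18 and 7.85 with HGF and UO, so that it fell by 1.45 ± 0.19 (limma adjusted p = 7.46e-05). Cyclin D1 (CCND1) differed by -0.17 ± 0.08 (limma adjusted p = 0.161, 95% interval -0.34 to 0.00) beside 2.53 for HGF. The early gene IER3 rose by 0.74 ± 0.12 and PHLDA1, a pleckstrin domain protein, by 0.53 ± 0.14. MYC (-0.03), the EGF ligand EREG (-0.04), the membrane protein EMP1 (-0.32) and the ETS factors ETV5 (0.06) and ETV4 (-0.81, limma adjusted p = 0.0505) did not pass.

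The HGF receptor and several of its partners fell. Of 19 genes of MET signalling and HGF activation, 7 were lower and 0 higher (36.8% called, beside 24.1% of all genes). Their median was -0.12 beside -0.041 for HGF. MET read 11.34, 11.41, 11.36 and 11.61 on the Control arrays, 12.09 to 12.30 with HGF, and 10.81, 10.75 and 10.84 with HGF and UO. Its fall of 0.63 ± 0.07 passed (limma adjusted p = 2.59e-05), and MET on the HGF + PD arrays was 0.61 below Control. PIK3CA, the catalytic subunit of PI3 kinase, fell by 0.90 ± 0.11 beside a rise of 0.94 with HGF. STAT3 fell by 0.74 ± 0.07, the docking protein GAB1 by 0.69 ± 0.16 and the semaphorin receptor PLXNB1 by 0.68 ± 0.16. Of 11 genes of the EGF family, 2 were higher and 3 lower, with the receptors ERBB3 and ERBB2 at -0.75 ± 0.15 and -0.60 ± 0.12.

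Junction and epithelial genes were lower with HGF and UO than in untreated monolayers. Of 32 genes of junctions and polarity, 17 were lower and 1 higher, with a median of -0.36 beside -0.012 for HGF. Without HGF + UO replicate 2 the lower count was 10. CLDN4, a sealing claudin of tight junctions, read 10.95, 10.82, 11.02 and 11.07 on the Control arrays, 11.97 to 12.05 with HGF, and 9.91, 9.77 and 10.00 with HGF and UO. HGF lay above Control and HGF + UO below it, by 1.07 ± 0.08 (2.10-fold, limma adjusted p = 2.58e-07). E-cadherin (CDH1) read 9.70, 9.81, 9.75 and 9.93 on Control and 9.05, 9.10 and 9.29 with HGF and UO, a fall of 0.66 ± 0.09 (limma adjusted p = 0.000135) beside a rise of 0.60 with HGF. Atypical protein kinase C (PRKCI) fell by 0.48 ± 0.06, its partner in the polarity complex PARD6B by 0.83 ± 0.12, plakoglobin (JUP) by 0.71 ± 0.17 and the kidney cadherin CDH16 by 1.03 ± 0.21. EPCAM (-0.02), beta-catenin CTNNB1 (-0.01) and the leaky-epithelium claudin CLDN2 (-0.56 ± 0.38, limma adjusted p = 0.345) did not pass.

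Of 10 measured kidney epithelial markers, 6 were lower and 0 higher, with a median of -0.60. This list shares CDH1, CDH16, CLDN4 and EPCAM with the junction list, so its count is not independent of the one above. It also shares PAX8 with the transcription factors below. Keratin KRT8 read 15.12, 15.15, 15.17 and 14.99 on Control and 14.55, 14.23 and 14.49 with HGF and UO (-0.69 ± 0.07), and its partner KRT18 fell by 0.55. Both remained among the brightest genes, as did EPCAM (15.31). The summed intensity of these markers was 113000 ± 4300 on the Control arrays and 86800 ± 4220 on the HGF + UO arrays (SD, n = 4 and 3, exact permutation p = 0.0286, adjusted 0.0571), and 88600 with HGF. In bulk RNA, fewer cells of a kind and less RNA per cell cannot be told apart. Among 18 nephron and epithelial transcription factors, 4 were lower and 0 higher (22.2% called, beside 24.1% of all genes). They were ELF3 (-0.80 ± 0.14), the kidney factor PAX8 (-0.64 ± 0.12), HNF4G (-0.52 ± 0.15) and the epithelial splicing regulator ESRP1 (-0.51 ± 0.10).

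**Figure D4:**
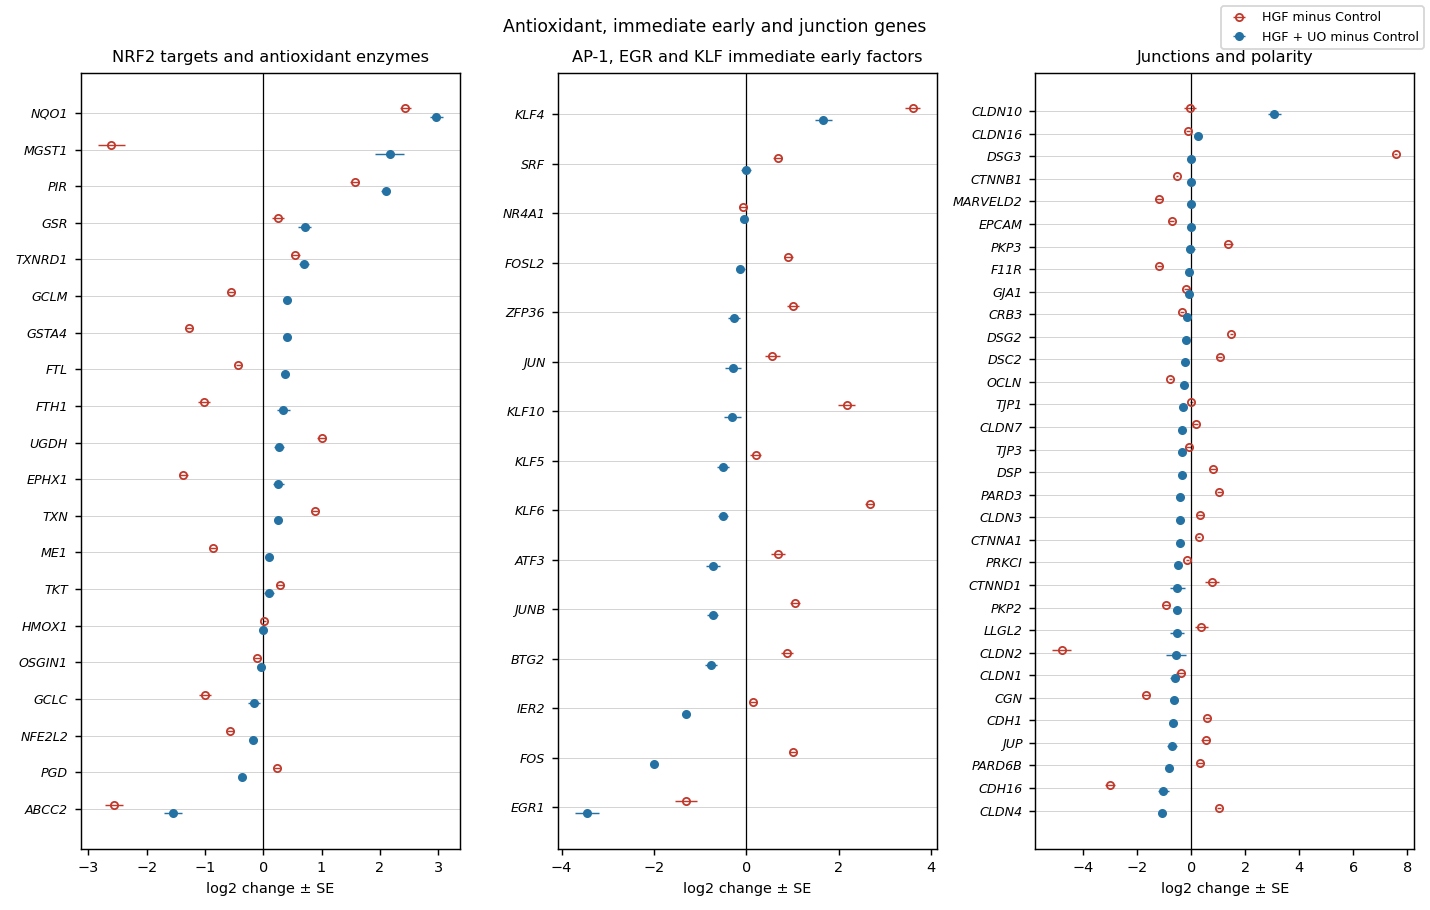
Log2 change ± SE of antioxidant genes (left), immediate early transcription factors (middle) and junction genes (right), for HGF + UO minus Control (filled) and HGF minus Control (open). Filled points lie mainly right of 0 on the left panel, with NQO1 at 2.97, and mainly left of 0 on the other panels, with EGR1 at -3.45 and CLDN4 at -1.07.

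Integrins, the receptors for matrix, passed in part. Of 16 integrin genes, 4 were lower and 1 higher (31.2% called, beside 24.1% of all genes). The higher count was 0 without Control replicate 2 or 3 or without any 1 of the HGF + UO arrays. ITGB6, which pairs with the alpha V chain to activate TGF-beta, read 12.48, 12.53, 12.63 and 12.47 on the Control arrays, 12.18 to 12.38 with HGF, and 10.89, 10.75 and 10.93 with HGF and UO. The 3 groups did not overlap, and the fall was 1.67 ± 0.07 (3.18-fold, limma adjusted p = 4.59e-09), with -1.64 and, on a dim probe set, 0.16 elsewhere. The collagen receptor chain ITGA2 fell by 1.35 ± 0.09 beside a rise of 0.84 with HGF, ITGB8 by 1.29 ± 0.15 and the alpha V chain ITGAV by 0.38 ± 0.06. ILK, a kinase-like integrin adaptor, rose by 0.25 ± 0.08. LAMB3, a chain of an epithelial laminin, read 11.08, 10.92, 10.88 and 11.07 on Control, 12.62 to 12.84 with HGF, and 9.80, 9.56 and 9.91 with HGF and UO (-1.23 ± 0.09).

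Of 18 basement membrane genes 3 were higher and 3 lower (33.3% called, beside 24.1% of all genes). NTN4 fell by 0.62 ± 0.14, with -0.59 (limma adjusted p = 0.0601) on a second probe set, and COL17A1 by 0.29 ± 0.09. The type IV collagen chains COL4A1 (0.39 ± 0.12) and COL4A2 (0.42 ± 0.14) and the laminin LAMB1 (0.19) were the members that rose. That count fell from 3 to 0 without Control replicate 1, HGF + UO replicate 1 or HGF + UO replicate 3, and to 1 without Control replicate 2, 3 or 4. Other COL4A1 probe sets read 0.55 and 0.31 (limma adjusted p = 0.00357 and 0.431). For actin and SRF genes the counts were 7 lower and 3 higher of 22. The lower count was 5 or 6 with any 1 Control or HGF + UO array left out. Members that fell included the capping protein CAPG at -0.54 ± 0.06, FHL2 at -0.34 ± 0.05 and the tropomyosin TPM1 at -0.37 ± 0.05. Another TPM1 probe set fell by 0.61 (limma adjusted p = 2.25e-07), while 2 dimmer ones read -0.25 and -0.06 and did not pass. TNS4, a tensin of focal adhesions, read 8.86, 8.78, 8.84 and 8.39 on Control, 10.80 to 11.21 with HGF, and 6.88, 7.28 and 6.35 with HGF and UO (-1.88 ± 0.20).

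The deepest falls included genes that HGF raised and genes that it lowered. SBSN, a secreted protein of stratified epithelia, read 7.43, 6.92, 6.95 and 7.28 on the Control arrays, 8.34 to 8.60 with HGF, and 3.39, 3.59 and 3.77 with HGF and UO. Its fall of 3.56 ± 0.14 (11.8-fold, limma adjusted p = 1.31e-09) ended below the filter level, so that its size depends on the background estimate. MALL, a membrane raft protein of the MAL family, fell by 1.87 ± 0.10 beside a rise of 2.48 with HGF, and the sterol-binding protein OSBPL3 by 1.62 ± 0.13 beside 1.29. The membrane transporter SLC4A11 fell by 1.72 ± 0.33 beside 0.96, with -0.07 on another probe set, and the tetraspanin TSPAN15 by 1.58 ± 0.09 beside 0.04.

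CFI, the complement inhibitor factor I, read 12.83, 13.07, 12.99 and 13.08 on Control, 10.25 to 10.83 with HGF, and 10.97, 10.92 and 10.77 with HGF and UO. HGF + UO lay close to HGF and far below Control, with a fall of 2.11 ± 0.13 (limma adjusted p = 1.05e-07). The urate transporter SLC2A9 fell by 1.96 ± 0.20 beside -2.56, the complement protein C3 by 1.63 ± 0.18 beside -1.92 and the synaptotagmin SYT13 by 1.95 ± 0.26 beside -2.50. TMC5, a transmembrane channel-like protein, fell by 1.96 ± 0.18 beside -1.76, FAM149A by 1.89 ± 0.12 beside -2.37, NDRG2 by 1.99 ± 0.09 beside -3.60 and the gene annotated LOC607806 by 2.32 ± 0.18 beside -2.58. PPP1R3C, which directs protein phosphatase 1 to glycogen, fell by 1.89 ± 0.12 beside -0.73. On the HGF + PD arrays SLC2A9 and SYT13 stood 0.82 and 0.33 below Control, and CFI and TMC5 changed there by -2.57 and -2.56.

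The interferon-response genes that passed were all lower, 10 of 24 with 0 higher (41.7% called, beside 24.1% of all genes). The median of the list was -0.28 beside -0.16 for HGF. OAS2, a sensor of double-stranded RNA, fell by 0.71 ± 0.11 beside a rise of 1.65 with HGF, and the ubiquitin ligase HERC6 by 0.56 ± 0.06 beside a rise of 1.36. IFI44 fell by 0.53 ± 0.08 beside -0.95, and IRF1 and ISG15 by 0.57 ± 0.18 and 0.53 ± 0.11. Among 18 STAT3 targets and inflammatory mediators 2 were higher and 4 lower (33.3% called, beside 24.1% of all genes). The lower count was 2 without HGF + UO replicate 3. CXCL16, a membrane-bound chemokine, fell by 0.70 ± 0.09 with C3, while SOCS2, a cytokine signalling suppressor, rose by 0.66 ± 0.15 with PTGS2. In the prostaglandin pathway (3 of 10 higher, 2 lower) the receptor PTGER2 rose by 0.76 ± 0.08 beside -0.80 for HGF and thromboxane synthase TBXAS1 fell by 0.90 ± 0.14. The lower count there was 1 without Control replicate 3 or HGF + UO replicate 2 or 3.

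Some genes with wide HGF changes lay within 0.5 of untreated cells by their whole 95% interval on their brightest probe set. S100A2, a calcium-binding protein, read 8.52, 8.54, 8.74 and 8.66 on the Control arrays, 14.88 to 15.02 with HGF, and 8.52, 8.63 and 8.44 with HGF and UO. The HGF + UO and Control arrays overlapped, and their difference was -0.09 ± 0.08 (limma adjusted p = 0.508, 95% interval -0.25 to 0.08). A second S100A2 probe set read -0.39 ± 0.13 (limma adjusted p = 0.0531). RGS2, a regulator of G protein signalling, differed by -0.13 ± 0.11 beside 5.72 for HGF (95% interval -0.37 to 0.11), with 0.19 and -0.36 (limma adjusted p = 0.0363 for the latter) on other probe sets. DSG3, TFPI2 and ISG20, which HGF raised by 7.57, 7.18 and 6.09, differed by 0.00, 0.10 and -0.01, below the filter level in both groups. For such levels the scale has a floor, and a difference there would not be seen.

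TEX26, a testis-expressed gene, read 9.28, 8.82, 8.86 and 8.89 on Control, 2.99 to 3.04 with HGF, and 9.02, 8.95 and 9.23 with HGF and UO (0.11 ± 0.10). SORBS2, an adaptor of actin and adhesion sites, differed by -0.17 ± 0.15 beside -3.16 for HGF and -0.96 for HGF + PD. TEX9, SPATA17 and GDPD1, which HGF lowered by 3.05, 3.02 and 2.99, differed by -0.21 ± 0.10, -0.12 ± 0.12 and -0.06 ± 0.12. PDZK1, a scaffold of apical transporters, read 12.62, 12.47, 12.53 and 12.60 on Control, 4.84 to 7.08 with HGF, and 12.75, 12.78 and 12.96 with HGF and UO. Its HGF + UO arrays lay above Control without overlap, by 0.28 ± 0.38 (95% interval -0.55 to 1.10), which did not pass (limma adjusted p = 0.695). In a fit of these 7 arrays alone, where the wide spread of the HGF arrays does not enter, it passed (adjusted p = 0.0163). DEPTOR, an mTOR inhibitor that HGF lowered by 4.28, differed by 0.29 ± 0.21 (limma adjusted p = 0.39, 95% interval -0.17 to 0.75). MMP13, a collagenase raised by 7.58 with HGF, differed by 0.07 ± 0.22 (limma adjusted p = 0.883) near the filter level.

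TIMP1, an inhibitor of matrix metalloproteinases, went past the Control level. It read 6.61, 6.57, 6.30 and 6.45 on Control, 13.80 to 14.03 with HGF, and 6.02, 5.79 and 5.71 with HGF and UO, a fall of 0.64 ± 0.10 (limma adjusted p = 0.000258). The urokinase PLAU fell by 0.73 ± 0.16. In all, 3 of 15 matrix proteases and inhibitors were lower and 1 higher (26.7% called, beside 24.1% of all genes). Their median was -0.034 beside 0.99 for HGF. Of 13 genes of mesenchymal transition, 3 were higher (TGFBI, SNAI2 and the secreted follistatin-like protein FSTL1 at 0.85 ± 0.14) and S100A4 was lower (-0.44 ± 0.09 beside 2.26). Of this list 30.8% were called, beside 24.1% of all genes. Other FSTL1 probe sets read 0.97 and 0.15 (limma adjusted p = 0.373 for the latter). Vimentin (-0.04), fibronectin (FN1, -0.02) and N-cadherin (CDH2, 0.61, limma adjusted p = 0.0827, below the filter level in both groups) did not pass.

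Few ciliary genes passed, although HGF alone lowered 24 of 33 (27.7% of all genes were lower with HGF). The HGF + UO counts were 0 higher and 3 lower, 9.09% of the list, with a median of -0.11 beside -1.04 for HGF. The lower count was 5 after quantile normalization and 6 in a fit of the 7 arrays alone. IFT74, a carrier of intraflagellar transport, fell by 0.30 ± 0.06 beside -1.08, WDR19 of the same machinery by 0.70 ± 0.16 beside -1.24 and the ciliary transcription factor RFX3 by 0.69 ± 0.17 beside -1.56. Kidney transport and brush border genes had 0 higher and 3 lower of 26 (11.5%), with a median of -0.0056 beside -0.21 for HGF. In a fit of the 7 arrays alone 5 were higher, and 2 with an offset of 32 intensity units. The sodium-potassium-chloride cotransporter SLC12A2 read 12.63, 12.71, 12.72 and 12.71 on Control and 11.38, 11.30 and 11.49 with HGF and UO (-1.30 ± 0.09, limma adjusted p = 2.01e-07) beside -1.0 for HGF. The endocytic receptor CUBN fell by 0.58 ± 0.11 and the brush border enzyme GGT1 by 0.44 ± 0.10 beside -2.19.

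Changes in the lists of lipid metabolism, lysosome and nutrient sensing stayed below 1 in size. These lists do not hold LIPA, FABP1 or ACOT12, which rose by 2.44, 3.75 and 2.34. Of 18 genes of fatty acid oxidation and peroxisomes 8 were lower and 1 higher, with the carnitine palmitoyltransferases CPT1A and CPT2 at -0.63 ± 0.07 and -0.61 ± 0.08 and the thiolase ACAA2 at -0.38 ± 0.05. Of 13 genes of fatty acid synthesis 2 were higher and 1 lower (23.1% called, beside 24.1% of all genes). ACLY, which makes cytosolic acetyl-CoA, stood at 0.55 ± 0.09 and the desaturase SCD at 0.48 ± 0.04. Without HGF + UO replicate 3 the 1 higher member of oxidation was not called, nor was the 1 lower member of synthesis without Control replicate 4 or HGF + UO replicate 2. Among 28 genes of lysosome and autophagy 7 fell and 1 rose (28.6% called, beside 24.1% of all genes). The lower count was 4 without HGF + UO replicate 3. Cathepsin D (CTSD) fell by 0.52 ± 0.07 beside a rise of 1.04 with HGF. The autophagosome protein MAP1LC3B fell by 0.27 ± 0.04, with -0.28 and -0.13 (limma adjusted p = 0.507 for the latter) on other probe sets. The sialidase NEU1 rose by 0.48 ± 0.06, with 0.19 (limma adjusted p = 0.114) on another probe set. Of 17 FOXO targets 6 were lower and 1 higher, among them CITED2 at -0.94 ± 0.06 and KLHL24 at -0.81 ± 0.10. Of 18 mTOR regulators 2 were higher and 2 lower (22.2% called, beside 24.1% of all genes). Among them, the translation repressor EIF4EBP1 stood at 0.40 ± 0.09 beside 2.82 for HGF. The lower count was 0 without HGF + UO replicate 2 and in a fit of the 7 arrays alone, and 1 without Control replicate 3 or 4 or HGF + UO replicate 1 or 3. The higher count was 1 without Control replicate 2, 3 or 4 or HGF + UO replicate 1 or 2.

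Stress, survival and other signalling lists went both ways. Of 18 genes of the unfolded protein response 5 rose and 1 fell (33.3% called, beside 24.1% of all genes). The chaperone-like factor MANF stood at 0.50 ± 0.08 and HERPUD1, of the degradation machinery, at -0.56 ± 0.05. The higher count was 3 after median centring and without HGF + UO replicate 1. Among 17 heat shock proteins 4 rose and 3 fell, and the higher count was 2 without Control replicate 1, Control replicate 4 or HGF + UO replicate 1. Members with the lowest adjusted p were HSP90AA1 (-0.27 ± 0.05), HSPD1 (0.19 ± 0.04) and HSPA8 (0.19 ± 0.04). Of 14 p53 targets 3 were higher and 3 lower, among them the fructose bisphosphatase TIGAR (0.81 ± 0.11) and the DNA damage sensor DDB2 (0.76 ± 0.10). Of 17 regulators of apoptosis 2 were higher and 2 lower (23.5% called, beside 24.1% of all genes). The inhibitor BIRC3 stood at 1.17 ± 0.19, with 0.08 (limma adjusted p = 0.667) on another probe set near the filter. The BCL2 relative MCL1 stood at -0.47 ± 0.07. The lower count was 1 without HGF + UO replicate 3.

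Among 16 YAP and TEAD targets 3 rose and 5 fell, the latter 3 without HGF + UO replicate 2. The matricellular proteins CCN1 and CCN2 changed by 0.86 ± 0.10 and -0.52 ± 0.11, the second with -0.55 (limma adjusted p = 0.11) on another probe set. Tissue factor F3 changed by 0.55 ± 0.08, with 0.42 (limma adjusted p = 0.0771) on another probe set. Among 25 TGF-beta and BMP genes 4 rose and 2 fell (24% called, beside 24.1% of all genes). The BMP target ID1 stood at 0.48 ± 0.09. The 4 became 2 without Control replicate 3 or HGF + UO replicate 1, and the 2 became 0 without Control replicate 1, Control replicate 3 or HGF + UO replicate 2, and 1 without HGF + UO replicate 1 or 3. Among 19 Wnt and Notch genes 1 rose and 1 fell (10.5% called). The former count was 0 without HGF + UO replicate 1 or 2 and the latter 2 without HGF + UO replicate 3. S100 proteins and annexins were lower in 7 of 20 and higher in 0 (35% called, beside 24.1% of all genes). Among them were ANXA3 (-0.38 ± 0.07), S100P (-0.27 ± 0.05) and ANXA1 (-0.21 ± 0.03). Cytosolic ribosomal proteins were lower in 5 of 29 and higher in 0 (17.2% called), with a largest change of -0.21. The 5 became 1 without HGF + UO replicate 1, 2 without Control replicate 4, and 3 without Control replicate 1, Control replicate 3, HGF + UO replicate 2 or after median centring.

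Among markers of other cell types, 1 leukocyte marker was called and no fibroblast or endothelial marker. Of 5 fibroblast and 5 endothelial markers 0 passed in limma, with or without adjustment, and their summed intensities were 451 to 490 and 2490 to 2900 on the Control arrays and 445 to 475 and 2560 to 2730 with HGF and UO. Of 5 leukocyte markers 1 was lower, CD74 (-0.27, limma adjusted p = 0.00463), an antigen presentation chaperone that epithelia also express. CD74 carried nearly all of the summed leukocyte intensity, which was 44800 to 48200 on Control and 37800 to 39500 with HGF and UO. The groups did not overlap for this sum (exact permutation p = 0.0286, adjusted 0.0571). CD68 and CD14, defining markers of macrophages and monocytes, lay near or below the filter level in both groups (CD68 at 3.25 and 3.38, CD14 at 4.11 and 3.86).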

How the data were processed

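Total RNA of MDCK cultures was measured on 15 canine arrays of Affymetrix. Per the submitters' processing notes, the authors computed the deposited intensities of probe sets by GCRMA. This method removes a background that depends on probe sequence and normalises between arrays, and it compresses dim probe sets towards a floor. Its version and the annotation behind it are not given in the sources used here. Intensities ran from 1.97 to 104385 over 43035 probe sets.

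Values were put on the log2 scale without rescaling. Control probe sets (111) were left out, and those with a log2 of at least 4 on 3 or more of the 15 arrays were kept (24904, 58%). Genes were named from the platform annotation, 18490 of the kept probe sets having 1 symbol. The probe set with the highest mean represents a gene (10287 genes). limma 3.58.1 in R 4.3.3 fitted 1 mean per group to all 15 arrays (lmFit, eBayes with a variance trend). Benjamini-Hochberg adjustment covered all 24904 probe sets, the threshold was 0.05, and every adjusted p of a gene comes from this fit unless another is named. Changes are log2 differences ± SE. Exact permutation tests (two-sided) served for array measures. The number of arrays limits the precision. The steps were tested on simulated data.

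The comparison, the 44 gene lists (1068 genes, 790 measured) and the rule for named genes were chosen with earlier results of these data known. The rule took, among genes with a group mean of at least 6 and no overlap of arrays, the 12 largest rises and 12 largest falls, and the 8 largest each way among genes changed as with HGF or beyond both Control and HGF. It added the 5 each way with the widest HGF change (at least 2) and an interval against Control within 0.5, the 3 lowest adjusted p of each list with at least 3 members called, and 20 preset genes, of which SPRY4 was not analysed here. In all 159 genes were taken. Alternatives were a fit of the 7 arrays, quantile normalization, median centring, no filter or a filter of 6, an offset of 32, no variance trend, a replicate block and leaving out each Control or HGF + UO array.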

Additional observations from a re-analysis of the deposited data

Results flagged for a closer look

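In 8 of the 159 genes taken by the naming rule, 1 of the 4 Control arrays lay far from the other 3 by Dixon's test (the 95% critical value for 4 samples), which chance gives in about 1 in 20 groups. SNAI2 read 8.64 on Control replicate 1 and 7.79 to 7.92 on the others, and TEX26 read 9.28 there against 8.82 to 8.89. SLC12A2 read 12.63 on Control replicate 1 against 12.71 to 12.72. On Control replicate 3, PTGS2 read 5.76 against 6.16 to 6.18, RFC3 8.09 against 8.20 to 8.21, and NEU1 10.02 against 10.21 to 10.23. On Control replicate 4, MCL1 read 12.15 against 11.95 to 11.98 and HSP90AA1 14.08 against 14.20 to 14.22. The calls of these 8 genes were the same with the array in question left out.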

How the results depend on the processing

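Under every alternative tried, the counts of probe sets past the threshold stayed within 1.5 times the reported ones. For HGF + UO against Control the count ran from 4404 (without HGF + UO replicate 3) to 5881 (quantile normalization), and from 4404 to 5249 with 1 array left out. Higher calls made up 53.6% of all calls, and 50.4% to 59.2% over the alternatives, the last without HGF + UO replicate 2. No setting moved the median change of all probe sets by 0.1. After the mean of its group was taken from each array, same-numbered Control and HGF + UO arrays correlated at 0.054 to 0.09 (3 pairs). The numbers were therefore not taken to pair the samples. With the replicate block, 5550 probe sets passed, 3097 higher and 2453 lower, and CDKN1A passed at 0.51 (adjusted p = 0.0131). Of the 159 named genes, 147 had the same call under every alternative that kept them, and 12 changed it at least once (SNAI2, PDZK1, SESN2, ULK1, RPL8, RPS13, RPS9, CDKN1A, COL4A1, BMP7, ACSL3 and BCL2A1). No direction reversed. Signal over background limits the sizes of genes near the floor.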
